A study of Mus musculus with 16 samples.

Results

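Kruppel-like factors are transcription factors with C2H2 zinc fingers at the C-terminal end, which bind GC-rich and CACCC sequences in promoters and enhancers, while their N-terminal parts recruit different coactivators and corepressors. In the intestinal epithelium Klf4 is known for differentiation and goblet cell maturation at the surface, and Klf5 for proliferation in the crypt. Klf2 is known mainly from endothelium and resting T cells, Klf6 and Klf10 as genes that respond early to growth factors and TGF-beta, and Klf9 and Klf15 as targets of the glucocorticoid receptor.

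The 10 genes described here, Klf2, Klf3, Klf4, Klf5, Klf6, Klf7, Klf9, Klf10, Klf13 and Klf15, were taken by symbol from a table of 24091 genes, which holds 17 genes named Klf in all. They were measured by RNA sequencing in epithelial cells released from the caecum of C57BL/6 mice, in a series on histone butyrylation in the mouse gut. There were 9 RNA libraries in 3 groups of 3. Mice of every group drank Splenda at 10 g/L. The vehicle group received no ampicillin and a mock gavage of 25% glycerol. The ampicillin group drank ampicillin at 1 g/L for 7 days and received the same mock gavage. The tributyrin group drank ampicillin likewise and was gavaged with tributyrin, a triglyceride that releases butyrate on digestion. The harvest came 6 h after gavage. The age of the mice is not stated in the labels. Whether each library is a mouse of its own is not stated in the labels, and p-values measure only the spread between libraries, which may be technical.

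Values are TPM, transcript levels scaled by length to the same total in each library, so levels of different genes can be set side by side, but sequencing depth is unknown. Between 17242 and 17722 genes were above 0 in a library. Correlations between libraries over all tested genes were 0.9755 to 0.9814 within a group and 0.9637 to 0.9749 between groups. The epithelial markers were abundant throughout, with Epcam at 1391 ± 49.0 TPM (SD, n = 3) in vehicle, 1177 ± 36.4 with ampicillin and 1217 ± 42.1 with tributyrin. All 6 fibroblast markers were under 0.5 TPM in every library. In bulk RNA, fewer cells of a type and less RNA per cell cannot be told apart.

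The 10 genes spanned levels from under 1 to over 280 TPM. Klf4 had the highest mean over the 9 libraries, 243 TPM, above 94.7% of the 12155 genes tested. Klf5 followed at 191 TPM and Klf6 at 137 TPM. Klf3 stood at 59.6 TPM, the middle group of Klf2, Klf10, Klf9 and Klf13 between 17.8 and 30.6 TPM, and Klf7 at 2.74 TPM. Klf15 averaged 0.420 TPM and fell under the mean of 1 TPM needed for testing, so 9 of the 10 genes were tested, and each of those 9 was above 1 TPM in every library.

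**Figure D1:**
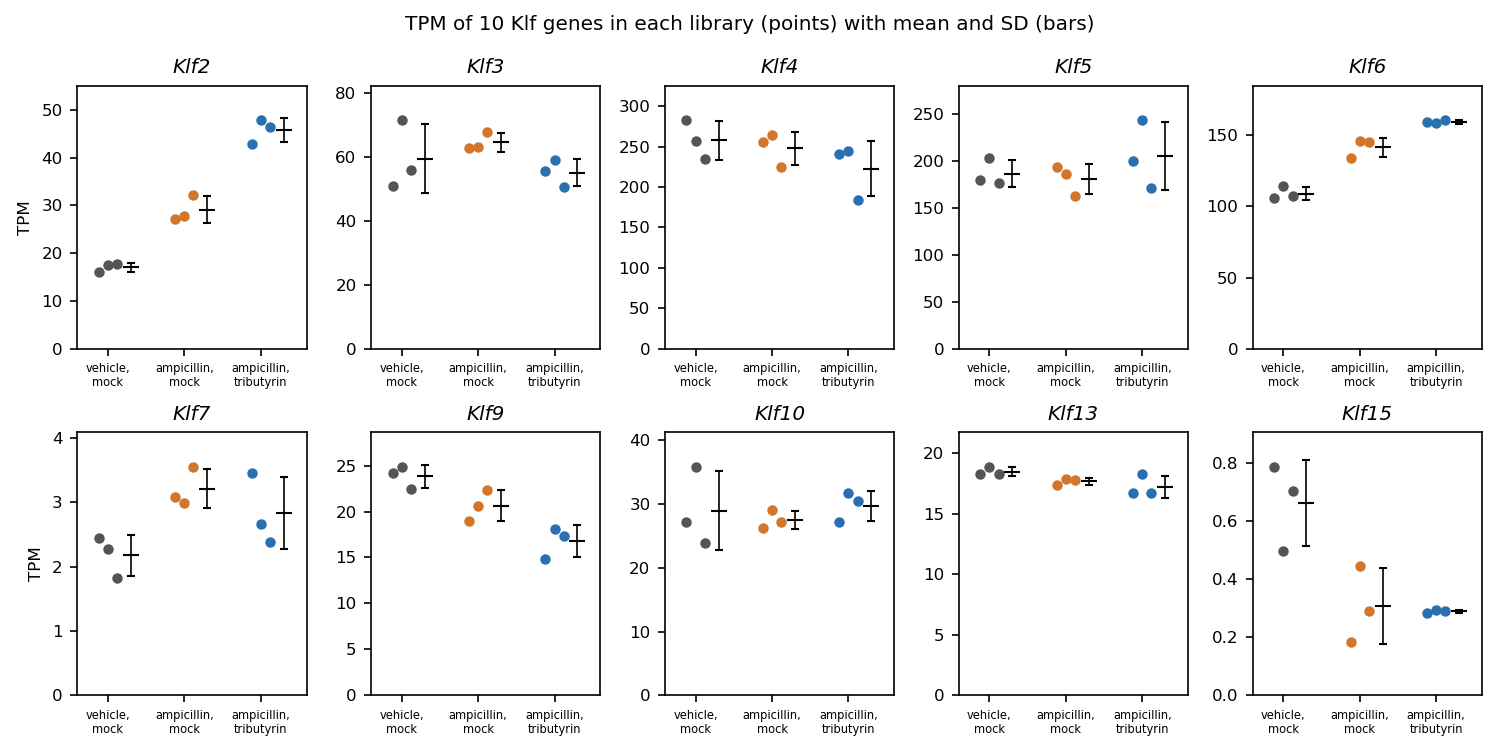
TPM of each of the 10 Klf genes (vertical axis, from 0, own scale per gene) in the vehicle, ampicillin and tributyrin groups; points are libraries and bars are the mean and SD of 3. The 3 tributyrin libraries of Klf2 sit between 42.9 and 47.8 TPM, above the ampicillin libraries at 27.2 to 32.3, which sit above the vehicle libraries at 16.0 to 17.6.

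Ampicillin with mock gavage against vehicle asks what the antibiotic did to these transcripts. Klf2, Klf6 and Klf7 rose, and none fell past the threshold of an adjusted p of 0.05. That is 3 of 9 tested genes, where 21.3% of all tested genes changed, 11% upward and 10.2% downward, so the share called is no result about the family. The median difference of the 9 was -0.04 on the log2(TPM + 1) scale, beside 0.02 for all tested genes. Tributyrin against mock gavage under ampicillin asks what the butyrate donor did. Klf2 and Klf6 rose and Klf9 fell, 3 of 9 where 23.2% of all genes changed (15.6% upward and 7.54% downward), with a median of -0.04 beside 0.05 for all genes. With tributyrin and ampicillin against vehicle, Klf2 and Klf6 rose and Klf9 fell, 3 of 9 where 28.3% of all genes changed (19.1% upward and 9.21% downward), with a median of 0.05 beside 0.08. These 3 comparisons share libraries, so agreement between them is not independent. Under quantile normalization the share of calls that were higher, over all genes, went from 67.5% to 47.1% for tributyrin against mock gavage and from 67.5% to 50.3% for tributyrin against vehicle.

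**Figure D2:**
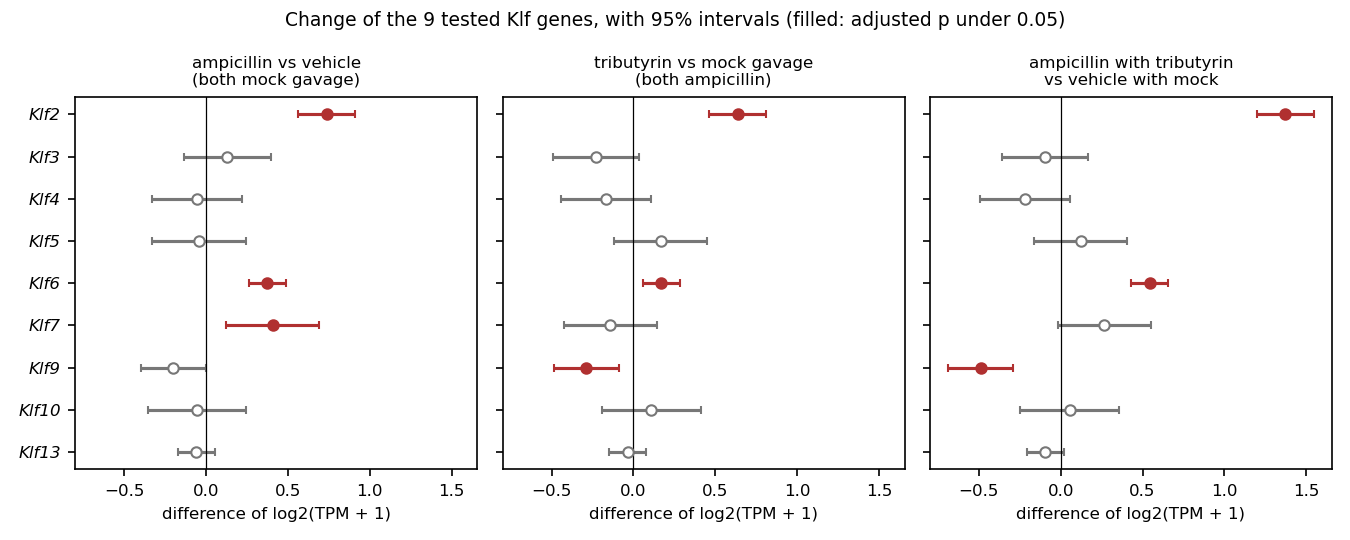
Difference of log2(TPM + 1) for the 9 tested Klf genes (horizontal axis) in the 3 comparisons, with 95% intervals from limma; filled points had an adjusted p under 0.05. Klf2 has the interval farthest from 0 in each panel, from 0.56 to 0.91 with ampicillin against vehicle and from 0.46 to 0.81 with tributyrin against mock gavage.

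Klf2 rose at both steps. It holds endothelial cells and naive T cells in a resting state and is induced by shear stress through MEK5, ERK5 and MEF2 factors. The gene lies on chromosome 8 at 72319062 to 72321654 (GRCm38.p6, the build called mm10). The vehicle libraries held 16.0, 17.4 and 17.6 TPM, the ampicillin libraries 27.2, 27.8 and 32.3, and the tributyrin libraries 42.9, 47.8 and 46.4. No library of one group reached into the range of another. The group means were 17.0 ± 0.892, 29.1 ± 2.77 and 45.7 ± 2.50 TPM (SD, n = 3), ratios of 1.71 with ampicillin over vehicle, 1.57 with tributyrin over mock gavage and 2.68 over both steps. In limma's model the log2 difference was 0.74 ± 0.076 (SE, adjusted p = 0.000335) for ampicillin against vehicle. For tributyrin against mock gavage it was 0.64 ± 0.076 (adjusted p = 0.00119), and for tributyrin against vehicle 1.37 ± 0.076 (adjusted p = 3.20e-05). Klf2 was called in all 19 alternative settings of each comparison.

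The 250 bases before the start of Klf2, RefSeq sequence of GRCm38.p6 at chr8:72318812-72319061 on the plus strand, are shown because they hold a match to the MEF2 motif, CTA and TAG around 4 bases that are each A or T. Capitals mark that match, whose first base is 118 before the start, and the GC boxes, GGGCGG, at 214 and 195 before it.
Klf2: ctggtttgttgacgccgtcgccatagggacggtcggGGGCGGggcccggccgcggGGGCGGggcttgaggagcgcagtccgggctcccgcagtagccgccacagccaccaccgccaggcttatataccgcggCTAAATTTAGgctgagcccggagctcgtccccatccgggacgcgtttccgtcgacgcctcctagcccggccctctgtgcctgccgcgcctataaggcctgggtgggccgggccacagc
Of 32851 windows of the same length before RefSeq starts, 167 held such a match, a share of 0.508%, and among the 8 windows of Klf genes that of Klf2 alone held one. The GC box, searched on both strands like the other motifs, was in 32.7% of them. GC content of the window is 71.2%, beside a median of 52.4% over all windows. A match of letters is a description and does not show binding.

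Of 10 genes of the kinases, MEF2 factors and ubiquitin ligases known to act on Klf proteins, 9 were tested. With ampicillin 1 rose and 1 fell, with tributyrin against mock gavage 3 fell, and with tributyrin against vehicle 2 fell. Over all tested genes 21.3%, 23.2% and 28.3% were called in these comparisons, with 10.2%, 7.54% and 9.21% called lower. Taken over both directions, the counts are near the share of all genes. The 3 falls with tributyrin against mock gavage exceed the share called lower, but they are few and the list was not tested as a set. Counts of the other lists are to be read beside the same shares, each in its direction. Mapk7, which encodes ERK5, went from 9.02 ± 0.582 TPM in vehicle to 11.1 ± 0.236 with ampicillin (log2 difference 0.27 ± 0.061, adjusted p = 0.0149), and was lower again at 9.45 ± 0.526 with tributyrin (-0.21 ± 0.061, adjusted p = 0.0405). Map2k5, which encodes its kinase MEK5, fell from 13.1 ± 0.215 to 11.2 ± 0.460 TPM with tributyrin against mock gavage (-0.21 ± 0.049, adjusted p = 0.0174). The part of these kinases in the rise of Klf2 at that step was not tested. Fbxo32, a ubiquitin ligase subunit, fell from 2.97 to 1.90 TPM with ampicillin (-0.45 ± 0.108, adjusted p = 0.0191). Smurf1, another ubiquitin ligase, fell from 10.1 to 7.86 TPM with tributyrin against mock gavage (-0.33 ± 0.087, adjusted p = 0.0263).

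Genes known as Klf2 targets in endothelium and T cells were scarce. Only 1 of the 8 in the table, Itgb7, an integrin subunit of gut lymphocytes, passed the filter, and it rose from 1.78 ± 0.481 to 3.09 ± 0.761 TPM with tributyrin against mock gavage (0.56 ± 0.169, adjusted p = 0.0453). The sphingosine receptor gene S1pr1 averaged 0.382, 0.431 and 0.569 TPM in vehicle, ampicillin and tributyrin. Thbd, Nos3, Ccr7, S1pr5 and Kdr were under 0.5 TPM in every library.

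Markers of the other cell types known for Klf2 were read in the same libraries. The 7 T cell markers of the table summed to 20.4 to 23.2 TPM in the vehicle libraries, 15.3 to 24.6 with ampicillin and 26.9 to 46.4 with tributyrin. None of the 6 tested passed with ampicillin against vehicle, and 3 rose with tributyrin against mock gavage: Lck, Cd8a and Cd3d. The 8 endothelial markers summed to 4.35 to 4.74 TPM in vehicle, 0.912 to 1.07 with ampicillin and 1.82 to 2.26 with tributyrin. Most of that sum was Pecam1, which leukocytes and platelets also express, at 3.79 ± 0.253, 0.586 ± 0.0660 and 1.38 ± 0.276 TPM. It was the 1 endothelial marker tested, and it fell with ampicillin (-1.59 ± 0.107, adjusted p = 4.02e-05) and rose with tributyrin against mock gavage (0.58 ± 0.107, adjusted p = 0.00679). Vwf averaged 0.320, 0.292 and 0.482 TPM in the 3 groups. Of the others, Cdh5, Kdr, Tek, Cldn5, Eng and Flt1 were under 0.5 TPM in every library. Among these, Cldn5 averaged 0.309, 0.010 and 0.039 TPM in the 3 groups, the direction of Pecam1. Eng averaged 0.054, 0.082 and 0.079 TPM. Both were near 0 and were not tested. Erythroid transcripts, the haemoglobin genes Hba-a2 and Hbb-bs with Alas2, summed to 8.31 to 25.3 TPM in vehicle, 13.4 to 36.6 with ampicillin and 94.3 to 134 with tributyrin, with Alas2 under 0.5 TPM throughout. Near-identical haemoglobin copies share reads, so only their sum is given. The part of T cell, endothelial and blood transcripts in the rise of Klf2, with ampicillin or with tributyrin, was not tested.

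**Figure D3:**
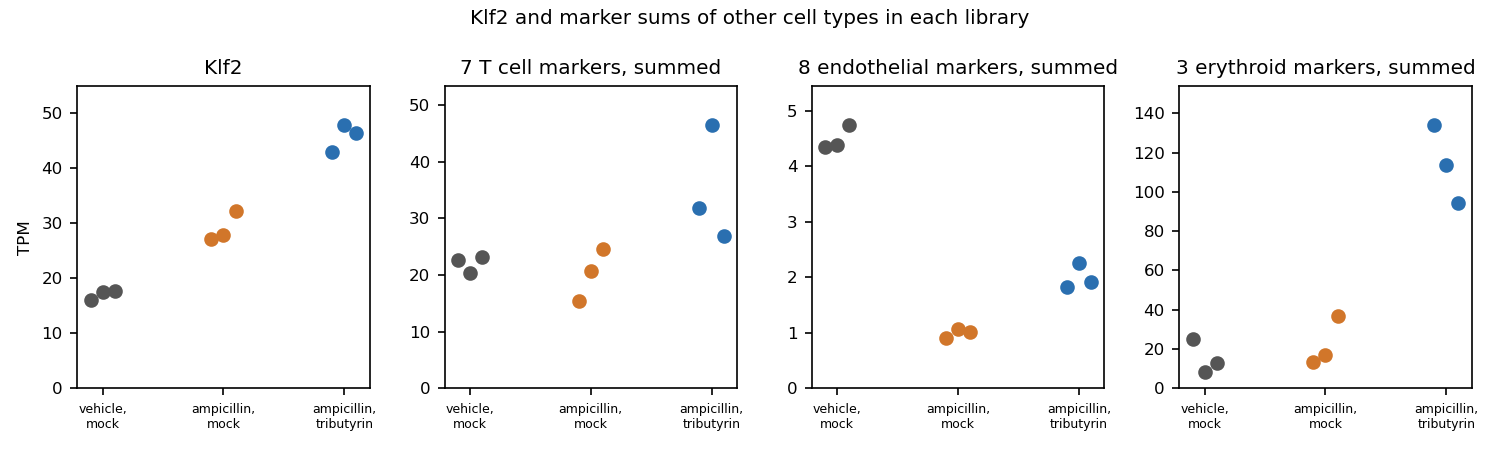
Klf2 and the summed markers of other cell types in TPM (vertical axes, from 0) by group; points are libraries. Klf2 is higher in each ampicillin library than in any vehicle library. The T cell sum overlaps between those groups. The endothelial sum, most of it Pecam1, is 4.35 to 4.74 TPM in vehicle and 0.912 to 1.07 with ampicillin. The part of these cell types in the level of Klf2 was not tested.

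Klf6 rose in the same direction by smaller steps and from a higher level. It is a widely expressed factor that is induced soon after injury or growth factor stimulation, on chromosome 13 at 5861489 to 5870393. The vehicle libraries held 106, 114 and 107 TPM, the ampicillin libraries 134, 146 and 145, and the tributyrin libraries 159, 158 and 160.4. Again no library of one group reached into another. Group means were 109 ± 4.65, 141 ± 6.74 and 159 ± 1.12 TPM (SD, n = 3). The log2 difference was 0.37 ± 0.050 (SE, limma, adjusted p = 0.00125) for ampicillin against vehicle and 0.54 ± 0.050 (adjusted p = 0.000270) for tributyrin against vehicle. Both were called in all 19 alternative settings.

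The step of Klf6 from mock gavage to tributyrin was 0.17 ± 0.050 (limma, adjusted p = 0.0403), a ratio of means of 1.12, and this call was less stable. It was lost in 11 of 19 alternative settings, with adjusted p from 0.0284 to 0.130 over all of them. Without ampicillin replicate 1 the difference was 0.13 (adjusted p = 0.130), without ampicillin replicate 2 adjusted p = 0.0688 and without ampicillin replicate 3 adjusted p = 0.0639. Leaving out a tributyrin library gave 0.0913 for replicate 1, 0.0969 for replicate 2 and 0.0734 for replicate 3 as the adjusted p, and leaving out vehicle replicate 3 gave 0.0579. Under quantile normalization the difference was 0.15 (adjusted p = 0.0597). The direction was upward in each of these.

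The 250 bases before the start of Klf6, RefSeq sequence of GRCm38.p6 at chr13:5861239-5861488 on the plus strand, are given beside those of Klf2 since both transcripts rose at both steps. Capitals mark 4 CCAAT boxes, read as CCAAT or ATTGG, a GC box GGGCGG at 63 before the start and an E-box CACGTG at 43.
Klf6: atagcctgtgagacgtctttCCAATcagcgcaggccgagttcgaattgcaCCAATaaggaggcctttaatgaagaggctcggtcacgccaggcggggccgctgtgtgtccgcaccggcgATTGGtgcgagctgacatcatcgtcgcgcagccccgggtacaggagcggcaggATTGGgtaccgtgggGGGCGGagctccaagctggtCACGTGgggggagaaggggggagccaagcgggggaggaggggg
The windows of Klf2 and Klf6 share the GC box. The MEF2 motif was not found in that of Klf6, nor CCAAT or CACGTG in that of Klf2. CCAAT was in 33.8% and CACGTG in 6.02% of all windows. Windows were given for 8 of the 10 genes, and among these GGGCGG was in 7, CCAAT in 4 and CACGTG in 3, at GC contents of 59.2% to 78.4%.

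Immediate early genes are those that cells transcribe within minutes of a stimulus. Of 15 on the list, all tested, 9 rose and 0 fell with ampicillin against vehicle, 7 rose and 0 fell with tributyrin against mock gavage, and 14 rose and 0 fell with tributyrin against vehicle. Their median log2 differences were 0.47, 0.31 and 0.82, beside 0.02, 0.05 and 0.08 for all tested genes. Atf3, a stress-induced bZIP factor, was at 103 ± 26.6 TPM in vehicle, 215 ± 18.1 with ampicillin and 260 ± 10.9 with tributyrin (ampicillin against vehicle 1.09 ± 0.161, adjusted p = 0.00200). Fosb, an AP-1 subunit, was at 141 ± 20.4, 243 ± 8.39 and 320 ± 20.6 TPM (0.79 ± 0.0998, adjusted p = 0.000928). Egr2, a zinc finger factor, went from 11.2 ± 0.462 to 20.4 ± 2.11 TPM with tributyrin against mock gavage (0.81 ± 0.084, adjusted p = 0.000710). The summed list ranged from 2281 to 2756 TPM in vehicle, 3354 to 3646 with ampicillin and 4060 to 4376 with tributyrin. How far the release of the cells, with DTT, EDTA and Dispase, added to these levels was not tested. Nor was the part of these genes in the levels of Klf2 and Klf6.

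Over the 9 libraries, the genes whose log2(TPM + 1) ran closest to Klf2, among 8782 searched, were Selenof at a Pearson r of 0.996, Cyp2c65 at 0.991 and Slc25a25 at 0.985. Selenof, an endoplasmic reticulum selenoprotein, went through 155, 180.2 and 205.5 TPM in vehicle, ampicillin and tributyrin, and Cyp2c65, an intestinal cytochrome P450, through 296.5, 381 and 484 TPM. Closest to Klf6 were Zfand5 at 0.992, Pmaip1 at 0.989 and Hist1h1c at 0.987. Pmaip1, a BH3-only protein of apoptosis also called Noxa, went through 9.65, 19.4 and 25.5 TPM, and the linker histone gene Hist1h1c through 136, 202 and 254 TPM. These values describe likeness over libraries that share group means and are no test.

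Klf9 moved the other way. It is a glucocorticoid- and thyroid hormone-responsive repressor, on chromosome 19 at 23141226 to 23168129. The vehicle libraries held 24.2, 24.9 and 22.4 TPM, the ampicillin libraries 18.9, 20.6 and 22.4, and the tributyrin libraries 14.8, 18.1 and 17.4. The tributyrin libraries lay below every other library, and the ampicillin libraries lay narrowly below vehicle, with the closest pair at 22.38 and 22.45 TPM. Group means were 23.8 ± 1.25, 20.6 ± 1.72 and 16.8 ± 1.74 TPM (SD, n = 3). Klf9 fell with tributyrin against vehicle by 0.49 ± 0.087 on the log2 scale (limma, adjusted p = 0.00494), a call kept in all 19 alternative settings. The difference of ampicillin from vehicle was -0.20 ± 0.087 (adjusted p = 0.143).

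With tributyrin against mock gavage Klf9 fell by 0.29 ± 0.087 (limma, adjusted p = 0.0458), a call lost in 11 of 19 settings with adjusted p from 0.0238 to 0.133. Without ampicillin replicate 3 the difference was -0.23 (adjusted p = 0.133), and without tributyrin replicate 1 it was -0.20 (adjusted p = 0.115). Adjusted p was 0.112 without ampicillin replicate 2, 0.0536 without tributyrin replicate 2 and 0.0573 without tributyrin replicate 3. Leaving out vehicle replicates 1, 2 or 3 gave 0.0627, 0.0561 and 0.0571. The direction stayed downward in each.

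The 250 bases before the start of Klf9, at chr19:23140976-23141225 on the plus strand (RefSeq, GRCm38.p6), are shown as those of the member that fell. Capitals mark CCAAT or ATTGG, with first bases at 170, 69 and 66 before the start, the last 2 overlapping as CCAATTGG.
Klf9: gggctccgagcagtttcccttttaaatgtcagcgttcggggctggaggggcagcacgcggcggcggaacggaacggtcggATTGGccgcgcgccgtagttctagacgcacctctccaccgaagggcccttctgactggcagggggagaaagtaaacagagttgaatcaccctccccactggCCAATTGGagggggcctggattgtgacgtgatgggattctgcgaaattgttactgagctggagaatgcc
No GGGCGG was found in this window on either strand, the one exception among the 8 windows, and its GC content was 59.6%.

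Of 16 glucocorticoid response genes, 12 were tested. With ampicillin 2 rose and 0 fell, with tributyrin against mock gavage 2 rose and 1 fell, and with tributyrin against vehicle 5 rose and 1 fell, with medians of 0.12, 0.20 and 0.34. Per1, a clock gene that carries a glucocorticoid response element, fell with tributyrin from 11.6 ± 0.939 to 6.99 ± 0.809 TPM (-0.66 ± 0.097, adjusted p = 0.00259), the direction of Klf9. Pdk4, a kinase that inhibits pyruvate dehydrogenase, rose from 3.52 ± 0.428 to 7.54 ± 0.793 TPM (0.92 ± 0.203, adjusted p = 0.0140), and Glul, glutamine synthetase, from 139 ± 3.31 to 176 ± 5.82 (0.34 ± 0.055, adjusted p = 0.00401). Dusp1, which is also on the immediate early list, rose with ampicillin from 101 ± 11.3 to 191 ± 9.58 TPM (0.91 ± 0.082, adjusted p = 0.000172), as did Errfi1, a feedback inhibitor of the EGF receptor, from 41.4 to 57.1 TPM (0.46 ± 0.104, adjusted p = 0.0147). Closest to Klf9 over the libraries was Pparg, the nuclear receptor PPAR-gamma, at r = 0.962 and 169, 137 and 118 TPM in the 3 groups, followed by Ccdc68 at 0.940 and Etv3 at 0.936.

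Klf15, a regulator of amino acid breakdown and gluconeogenesis on chromosome 6 at 90461043 to 90491803, was barely detected. It stood at 0.788, 0.498 and 0.705 TPM in vehicle, 0.184, 0.445 and 0.292 with ampicillin and 0.285, 0.293 and 0.292 with tributyrin. All 6 ampicillin-treated libraries lay below the 3 of vehicle. An exact two-sided permutation test gave p = 0.1 for each ampicillin group against vehicle, the smallest that 3 against 3 allows (0.15 adjusted over 3 comparisons), and p = 0.8 between the ampicillin groups. With no filter, on 19652 genes, limma gave -0.35 ± 0.083 for ampicillin against vehicle (adjusted p = 0.0308) and -0.36 ± 0.083 for tributyrin against vehicle (adjusted p = 0.0221), while the difference between the ampicillin groups was -0.01 (adjusted p = 0.954).

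Of 9 tested genes of amino acid and fuel use known as Klf15 targets elsewhere, 1 rose and 5 fell with ampicillin, with a median of -0.38, and 4 rose and 3 fell with tributyrin against mock gavage, with a median of 0.22. With tributyrin against vehicle 0 rose and 5 fell, median -0.27. Gpt, alanine aminotransferase, fell from 172 ± 14.4 to 60.2 ± 1.67 TPM with ampicillin (-1.49 ± 0.065, adjusted p = 6.27e-06) and rose to 90.0 ± 4.07 with tributyrin (0.57 ± 0.065, adjusted p = 0.00102). Prodh, proline dehydrogenase, fell from 30.6 ± 8.04 to 14.3 ± 2.13 TPM with ampicillin (-1.03 ± 0.174, adjusted p = 0.00403). Pck1, of gluconeogenesis, fell from 79.7 ± 3.003 to 47.3 ± 6.22 TPM and rose to 66.6 ± 13.2 with tributyrin (adjusted p = 0.00573 and 0.0379). Bcat2, of branched-chain amino acid breakdown, rose from 30.3 ± 0.641 to 41.3 ± 3.37 TPM with tributyrin (0.43 ± 0.070, adjusted p = 0.00401), beside 39.9 ± 2.81 in vehicle. The 3 that fell with tributyrin against mock gavage were Bckdha from 42.6 to 36.6 TPM, Gpt2 from 16.0 to 13.5 and Ppargc1a from 4.68 to 3.72. Klf15 averaged 0.290 TPM with tributyrin beside 0.307 with mock gavage, under the filter. Its part in the levels of these genes was not tested.

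Klf4 and Klf5 carried most of the Klf transcripts and neither passed the test in any of the 3 comparisons. A limma fit with a block for replicate number did call Klf4 with tributyrin against vehicle (adjusted p = 0.0398). Klf4 lies on chromosome 4 at 55527137 to 55532475 and stood at 283, 256 and 235 TPM in vehicle, 256, 264 and 225 with ampicillin and 240.2, 244 and 183 with tributyrin. Its groups overlapped throughout. The differences were -0.05 for ampicillin against vehicle (95% interval -0.33 to 0.22, adjusted p = 0.8004), -0.17 for tributyrin against mock gavage (-0.44 to 0.11, adjusted p = 0.357) and -0.22 for tributyrin against vehicle (-0.49 to 0.06, adjusted p = 0.206). Klf5, on chromosome 14 at 99298691 to 99313412, stood at 180.1, 203 and 177 TPM in vehicle, 194, 187 and 163 with ampicillin and 199.7, 243 and 171 with tributyrin. Its intervals were -0.33 to 0.24, -0.12 to 0.45 and -0.16 to 0.41 around differences of -0.04, 0.17 and 0.12, with adjusted p of 0.849, 0.373 and 0.497 by limma. These intervals leave room for changes of either sign, so the p-values do not show that the genes stayed level.

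Since both genes are measured per length, their ratio can be read within a library. Klf4 over Klf5 was 1.569, 1.263 and 1.327 in vehicle, 1.318, 1.414 and 1.381 with ampicillin, and 1.203, 1.003 and 1.070 with tributyrin. The 3 tributyrin libraries had the lowest ratios of the 9. On the log2 scale the ratio averaged 0.46 ± 0.164, 0.45 ± 0.052 and 0.12 ± 0.133 (SD, n = 3). The difference of tributyrin from mock gavage was -0.33 and from vehicle -0.34, each with an exact two-sided permutation p = 0.1, the smallest possible with 3 against 3, and 0.15 adjusted over the 3 comparisons. Between ampicillin and vehicle the difference was -0.01 (exact permutation p = 0.9).

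**Figure D4:**
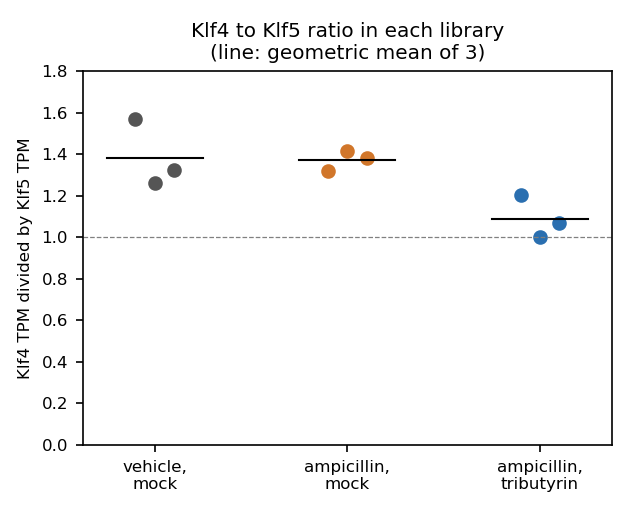
Klf4 TPM divided by Klf5 TPM in each library (vertical axis, from 0; points are libraries, lines the geometric mean of 3; the dashed line marks equal levels). The tributyrin libraries lie between 1.003 and 1.203, under the lowest ratio of the other groups, 1.263.

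Of 11 genes known as Klf4 targets, all tested, 1 rose and 6 fell with ampicillin against vehicle (median -0.34), 1 rose and 1 fell with tributyrin against mock gavage (median 0.00 when rounded), and 1 rose and 4 fell with tributyrin against vehicle (median -0.10). Alpi, intestinal alkaline phosphatase of mature enterocytes, fell from 31.2 ± 3.78 to 13.2 ± 0.604 TPM with ampicillin (-1.17 ± 0.116, adjusted p = 0.000267) and stood at 10.96 ± 1.67 with tributyrin. Muc2, the main secreted mucin of goblet cells, fell from 213 ± 42.7 to 118 ± 7.15 TPM (-0.83 ± 0.190, adjusted p = 0.0155) and stood at 127 ± 30.2 with tributyrin. Sprr2a3, a small proline-rich protein gene of a family of near copies whose reads are hard to assign, rose from 1638 ± 238 to 2686 ± 149 TPM with ampicillin (0.72 ± 0.102, adjusted p = 0.00161). With tributyrin against mock gavage it fell to 2086 ± 133 TPM (-0.37 ± 0.102, adjusted p = 0.0344). Klf4 itself did not pass the test in either comparison. The list was not split into genes that Klf4 raises and genes that it lowers, so its counts and medians give no direction of Klf4 action. Of 9 goblet cell markers, 3 fell with ampicillin, Muc2, Klk1 and Spink4, and 6 did not pass. Muc2 is on both lists. The 9 summed to 10700 to 13770 TPM in vehicle and 9509 to 10700 with ampicillin, and their part in the Klf4 list was not tested.

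Of 10 genes known as Klf5 targets, 1 rose and 2 fell with ampicillin (median -0.11), 4 rose and 1 fell with tributyrin against mock gavage (median 0.20), and 2 rose and 1 fell with tributyrin against vehicle (median 0.17). Myc rose with tributyrin from 32.3 ± 1.07 to 52.5 ± 9.40 TPM (0.67 ± 0.112, adjusted p = 0.00443). Ccnd1, cyclin D1, fell with ampicillin from 31.1 ± 3.01 to 24.2 ± 0.308 TPM (-0.34 ± 0.101, adjusted p = 0.0427) and rose with tributyrin to 34.3 ± 4.68 (0.47 ± 0.101, adjusted p = 0.0122). Birc5, survivin, rose at that step from 62.9 ± 7.67 to 86.7 ± 5.16 TPM (0.46 ± 0.091, adjusted p = 0.00885). Pdgfa, a growth factor chain, rose with ampicillin from 38.1 ± 2.54 to 57.9 ± 2.69 TPM (0.59 ± 0.103, adjusted p = 0.00459). With tributyrin it was lower again, at 44.3 ± 7.07 TPM. Fgfbp1, a carrier of fibroblast growth factors, fell with ampicillin from 279.6 ± 23.7 to 236.8 ± 4.70 TPM (-0.24 ± 0.072, adjusted p = 0.0494). Of 6 proliferation markers, 2 rose with tributyrin against mock gavage, Top2a and Mcm6, and 4 did not pass. Mcm6 had fallen with ampicillin from 61.4 to 49.2 TPM (limma, -0.32 ± 0.068, adjusted p = 0.0119) and stood at 62.6 with tributyrin. With tributyrin against vehicle 0 of the 6 passed. The 6 summed to 421.5 to 466.7 TPM in vehicle, 397 to 440.2 with ampicillin and mock gavage and 450.5 to 523 with tributyrin. Their part in the Klf5 list was not tested.

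Klf3, a CtBP-recruiting repressor on chromosome 5 at 64803521 to 64832901, stood at 50.9, 71.4 and 55.9 TPM in vehicle, 62.7, 63.0 and 67.8 with ampicillin and 55.6, 58.9 and 50.5 with tributyrin. The vehicle libraries spread across the range of ampicillin and most of that of tributyrin, whose lowest library lay just under them. The tributyrin libraries lay below those of ampicillin. The difference of tributyrin from mock gavage was -0.23 ± 0.115 (limma, adjusted p = 0.185). Those of ampicillin and of tributyrin from vehicle were 0.13 and -0.10 (adjusted p = 0.482 and 0.556).

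Klf7, on chromosome 1 at 64029448 to 64122345 and known from neurons and fat cells, was low, at 2.44, 2.27 and 1.82 TPM in vehicle, 3.09, 2.99 and 3.55 with ampicillin and 3.45, 2.67 and 2.38 with tributyrin. It rose with ampicillin by 0.41 ± 0.124 (limma, adjusted p = 0.0490), every ampicillin library above every vehicle library. The call rests on the threshold: it was lost in 10 of 18 settings, with adjusted p from 0.0207 to 0.158. It was lost on leaving out any 1 of the vehicle libraries (adjusted p = 0.0602, 0.0839 and 0.154 without replicates 1, 2 and 3), any 1 of the ampicillin libraries (0.0991, 0.0892 and 0.158) or tributyrin replicate 2 (0.0688). With tributyrin against mock gavage the difference was -0.14 (adjusted p = 0.443) and against vehicle 0.27 (adjusted p = 0.144).

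Klf10, the TGF-beta-inducible early gene, lies on chromosome 15 at 38291464 to 38300711. It stood at 27.2, 35.9 and 23.8 TPM in vehicle, 26.2, 29.0 and 27.2 with ampicillin and 27.1, 31.7 and 30.4 with tributyrin, with the vehicle libraries spread around all others. No comparison passed (adjusted p = 0.817, 0.586 and 0.785 by limma). Klf13, a regulator of chemokine expression in T cells, on chromosome 7 at 63886351 to 63938915, was the steadiest of the 10. Its vehicle libraries held 18.2, 18.9 and 18.2 TPM, the ampicillin libraries 17.3, 17.9 and 17.8 and the tributyrin libraries 16.7, 18.3 and 16.7. Its highest library was 1.132 times its lowest, and its differences were -0.06, -0.04 and -0.09 (adjusted p = 0.454, 0.640 and 0.183).

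TGF-beta and SMAD signalling is the pathway that gave Klf10 its older name. Of 13 genes tested, 2 rose and 5 fell with ampicillin (median -0.19), 1 rose and 1 fell with tributyrin against mock gavage (median 0.07), and 1 rose and 4 fell with tributyrin against vehicle (median -0.11). Id3, an inhibitor of bHLH factors, fell from 143 ± 28.7 to 66.7 ± 6.66 TPM with ampicillin (-1.08 ± 0.129, adjusted p = 0.000749), and Smad6, an inhibitory SMAD, from 11.9 ± 1.53 to 5.31 ± 0.422 (-1.03 ± 0.135, adjusted p = 0.00116). Id2, of the same family as Id3, rose from 17.2 ± 3.90 to 34.6 ± 6.04 TPM (0.97 ± 0.166, adjusted p = 0.00424). Tgfb1, the ligand, rose with tributyrin against mock gavage from 1.19 ± 0.0328 to 3.57 ± 0.873 TPM (1.04 ± 0.128, adjusted p = 0.00136), beside 2.57 ± 0.158 TPM in vehicle, a step at which 3 T cell markers also rose; their part in it was not tested.

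Counted by separation of libraries, 5 of the 9 tested genes had no overlap between ampicillin and vehicle: Klf2, Klf6 and Klf7 higher, Klf9 and Klf13 lower. Over all tested genes 40.8% had none, 22.6% higher and 18.2% lower. Between tributyrin and mock gavage it was 4 of 9, Klf2 and Klf6 higher and Klf3 and Klf9 lower, beside 42.6% of all genes, 27.3% higher and 15.3% lower. Between tributyrin and vehicle it was 3 of 9, Klf2 and Klf6 higher and Klf9 lower, beside 41.7%, 28.5% higher and 13.2% lower. These shares were near those of all genes, and the count says nothing particular about the family.

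The order of levels was set at the top and moved in the middle. Klf4, Klf5, Klf6 and Klf3 held ranks 1 to 4 in each of the 9 libraries, Klf7 was 9th and Klf15 10th. With tributyrin, the ranges of Klf4 at 183 to 244 TPM and Klf5 at 171 to 243 TPM overlapped across libraries. Within each tributyrin library Klf4 was the higher, by a ratio of 1.003 to 1.203. In vehicle the ranges of Klf10 and Klf9 overlapped likewise, with Klf10 the higher in each library. Klf2 ranked 8th in every vehicle library, 5th or 6th with ampicillin and 5th in every tributyrin library. The 10 genes summed to 704 ± 43.2 TPM in vehicle, 734 ± 27.1 with ampicillin and 754 ± 72.2 with tributyrin, and the ranges overlapped. Klf4, Klf5 and Klf6 together made up 78.6%, 77.8% and 77.7% of that sum. Within it the share of Klf4 was 36.6 ± 2.88%, 33.8 ± 1.59% and 29.4 ± 2.32%, that of Klf6 15.5 ± 0.669%, 19.3 ± 1.25% and 21.3 ± 2.22%, and that of Klf2 2.43 ± 0.223%, 3.98 ± 0.523% and 6.09 ± 0.642%.

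**Figure D5:**
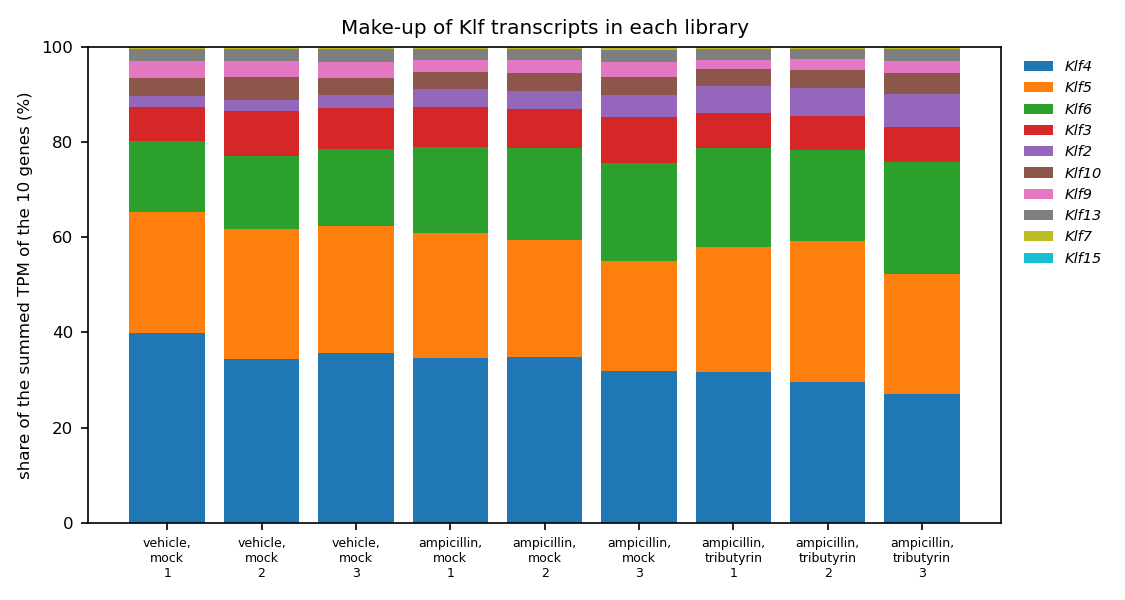
Share of each Klf gene in the summed TPM of the 10 (vertical axis, 0 to 100%) in each of the 9 libraries, one stacked bar per library. Klf4, Klf5 and Klf6 fill 77.7% to 78.6% on average in each group, while the Klf2 band widens from 2.43% in vehicle to 6.09% with tributyrin.

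Of the 16 other genes of the KLF and SP family in the table, 7 were tested and 8 were under 0.5 TPM in every library: Klf8, Klf12, Klf14, Klf17, Sp6, Sp7, Sp8 and Sp9. With ampicillin 1 rose, with tributyrin against mock gavage 0, and with tributyrin against vehicle 3, and 0 fell in each. Klf11, a second TGF-beta-inducible early gene and a repressor, rose with ampicillin from 5.92 ± 0.116 to 8.06 ± 0.287 TPM (0.39 ± 0.066, adjusted p = 0.00410) and stayed there with tributyrin at 8.06 ± 0.676 (adjusted p = 0.986 against mock gavage). Klf16 was at 9.63, 12.2 and 10.9 TPM and did not pass with ampicillin (0.31, adjusted p = 0.0638). Sp1 and Sp3, the widely expressed GC box factors, rose with tributyrin against vehicle, Sp1 from 11.7 to 14.3 TPM (0.27 ± 0.082, adjusted p = 0.0410) and Sp3 from 27.6 to 32.6 (0.24 ± 0.076, adjusted p = 0.0461). Klf1, the erythroid factor, lay at 0.328 to 0.777 TPM over the 9 libraries.

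Among 11 corepressors and coactivators that Klf proteins recruit, 1 rose with ampicillin, 4 rose and 2 fell with tributyrin against mock gavage, and 3 rose and 1 fell with tributyrin against vehicle. Sin3b, a scaffold that binds the repressive N-terminus of Klf9 and related factors, rose with ampicillin from 81.0 ± 4.005 to 94.8 ± 3.11 TPM (0.22 ± 0.048, adjusted p = 0.0117). With tributyrin against mock gavage the deacetylase gene Hdac1 rose from 187 ± 6.09 to 272 ± 16.5 TPM (0.54 ± 0.053, adjusted p = 0.000573) and Hdac3 from 65.5 ± 0.656 to 85.8 ± 3.23 (0.38 ± 0.042, adjusted p = 0.000896). Ctbp1, the corepressor of Klf3, fell from 183 ± 5.67 to 141 ± 6.65 TPM (-0.38 ± 0.048, adjusted p = 0.00149), while its paralog Ctbp2 rose with tributyrin against vehicle from 27.5 ± 1.42 to 33.7 ± 1.52 (0.28 ± 0.057, adjusted p = 0.00813).

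Markers of the other cell types were called as follows. With ampicillin against vehicle, 5 of 7 epithelial markers fell and 0 rose, 2 of 6 stem cell markers fell, 1 of 5 enteroendocrine markers fell, and of 7 absorptive colonocyte markers 2 rose and 2 fell. With tributyrin against mock gavage, 2 epithelial markers and 1 absorptive marker rose and none of these lists had a fall. With tributyrin against vehicle, 2 epithelial markers rose and 3 fell, 3 absorptive markers rose and 1 fell, 2 stem cell markers fell, 3 goblet cell markers fell, and 1 enteroendocrine marker rose and 1 fell. The 2 tuft cell markers tested and the 1 of smooth muscle passed in no comparison. B and plasma cell markers were under the filter. Myeloid markers summed to 45.9 to 58.5 TPM in vehicle, 19.5 to 26.1 with ampicillin and 15.2 to 26.2 with tributyrin, led by C1qa, a macrophage complement gene, at 46.7, 18.8 and 15.6 TPM. C1qa, the 1 myeloid marker called, fell with ampicillin (-1.26 ± 0.204, adjusted p = 0.00314) and was lower with tributyrin than in vehicle (-1.55 ± 0.204, adjusted p = 0.00136). Most of the sum was C1qa, and the means of Cd68, Itgam and Lyz2 did not fall with it. Cd68 averaged 1.649, 1.865 and 2.223 TPM in the 3 groups, Itgam 0.3373, 0.3709 and 0.6033, and Lyz2 1.434, 1.804 and 1.645. The ampicillin mean of Lyz2 was raised by replicate 2, at 3.262 TPM beside 1.212 and 0.9364. The vehicle libraries of Lyz2 held 1.199, 1.501 and 1.601 TPM. Csf1r and Adgre1 were under 0.5 TPM in every library. The median difference of the 3 myeloid markers tested was 0.1174 with ampicillin. Whether myeloid cells became fewer was not tested.

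For the members without a passed comparison, likeness over the 9 libraries was led by Gpr108 at r = 0.979 for Klf4, Lsm12 at 0.959 for Klf5, Nckap1 at 0.976 for Klf3, Tmem35b at 0.951 for Klf10 and Mxi1 at 0.925 for Klf13. For Klf7 it was Itsn2 at 0.940. RefSeq places other genes over Klf3, Klf7, Klf9, Klf10 and Klf13, among them Gm38457 over Klf3, Gm13748 over Klf7 and Mir1192 over Klf9. No strand setting is stated, so reads of such overlapping genes cannot be told apart.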

How the data were processed

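The series holds 16 samples of caecal epithelial cells, of which the 9 RNA libraries were used and 7 ChIP and input samples were not analysed here. Groups and replicate numbers come from the sample titles. Per the labels' protocols, cells were released with DTT and EDTA and then Dispase, with no sort described. The authors deposited 1 table of TPM per gene. The submitters' processing notes name Salmon 0.8.2, DESeq2 1.20.0 and mm10. Index, filters and strand setting: not given in the sources used here. TPM sums to 999833 to 999867 per library and keeps no depth, so no counting interval or count model was used, and a rise of some transcripts lowers the others. Gene IDs were matched to RefSeq GRCm38.p6 for 24045 of 24091 genes.

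Genes with a mean of at least 1 TPM (12155) were fitted as log2(TPM + 1) in limma 3.58.1 (R 4.3.3), with 1 mean per group, 6 residual degrees of freedom, a variance trend and Benjamini-Hochberg adjustment over all of them, two-sided, called under 0.05. The fold of a low gene is understated on this scale. The fit was tested on simulated data. Exact permutation tests of 3 against 3 used scipy 1.17.1 and cannot go below 0.1. Python 3.11.15 with matplotlib 3.10.9 drew the figures.

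The members and lists were chosen with earlier results of these data known. Named genes are all members, any gene of the KLF and SP list, up to 3 called genes of each list per comparison by size, and the 3 genes most alike in Pearson r among those of at least 5 TPM. Of these, those that show most were printed. Lists covered family genes, cofactors, upstream genes, targets of Klf2, Klf4, Klf5 and Klf15, glucocorticoid, TGF-beta and immediate early genes, and markers of epithelial, absorptive, goblet, stem, proliferating, enteroendocrine, tuft, endothelial, T, B and plasma, myeloid, fibroblast, smooth muscle and erythroid cells. No list was tested as a set. Alternatives were pseudocounts of 0.1 and 5, no filter, a mean of at least 5 TPM, quantile normalization, short RNA left out, a replicate block, no variance trend, array weights, only the libraries compared and leaving out each library.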

Additional observations from a re-analysis of the deposited data

How the results depend on the processing

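Of 510 pairs of a member's change and an alternative setting, 463 kept direction and side of the threshold, 32 lost a call, 3 gained one and 12 changed sign, all of these uncalled. The calls lost were those of Klf7 with ampicillin and of Klf6 and Klf9 with tributyrin against mock gavage. The gains, all with tributyrin against vehicle, were Klf13 with quantile normalization (-0.16, adjusted p = 0.0307), Klf7 with array weights (0.36, adjusted p = 0.0499) and Klf4 with the replicate block. With tributyrin against mock gavage, 1 member was called with no variance trend and 1 with only the libraries of the groups compared, and 4271 genes over all with array weights. Leaving out each library gave 1 to 2 members and 1574 to 2962 genes there, 2 to 3 members and 1747 to 2785 genes with ampicillin against vehicle, and 3 members each time and 2061 to 3766 genes with tributyrin against vehicle. The count of genes over all moved beyond 1.5 times without ampicillin replicate 1 (1749), ampicillin replicate 2 (1659) and tributyrin replicate 2 (1574, and 2061 against vehicle). The members called with tributyrin against mock gavage went from 3 to 1 without vehicle replicate 3, ampicillin replicate 2 or 3, or tributyrin replicate 1, 2 or 3. With fewer libraries a fit has fewer residual degrees of freedom.

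Signs changed as follows, the cause not tested. With ampicillin against vehicle, array weights gave 0.015 for Klf4, 0.0045 for Klf5 and 0.057 for Klf10. Leaving out a library there gave -0.12 to 0.0142 for Klf4 (above 0 without vehicle replicate 1 or ampicillin replicate 3), -0.095 to 0.030 for Klf5 (above 0 without vehicle replicate 2 or ampicillin replicate 3) and -0.18 to 0.10 for Klf10 (above 0 without vehicle replicate 2). With tributyrin against vehicle, Klf10 was -0.0035 with quantile normalization and -0.071 to 0.21 with a library left out (below 0 without vehicle replicate 3). Klf3 ranged from -0.20 to 0.040 (above 0 without vehicle replicate 2) and Klf5 from -0.0096 to 0.24 (below 0 without tributyrin replicate 2). The log2 ratio of Klf4 to Klf5 with ampicillin against vehicle ranged from -0.074 to 0.082 (above 0 without ampicillin replicate 1 or vehicle replicate 1), that of tributyrin against mock gavage from -0.40 to -0.27 and against vehicle from -0.41 to -0.25. Klf15 depended on the pseudocount: ampicillin against vehicle was -0.94 at 0.1 and -0.09 at 5.

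Whether replicate numbers pair the samples was not settled. Deviations of same-numbered libraries correlated at -0.0498 to 0.1076 over 9 pairs, with a median of 0.0198. Over 18 pairs of unlike number the range was -0.1175 to 0.0748, with a median of -0.009. Of 9 libraries, 6 correlated best with their own number. With the replicate block 2 members were called with ampicillin (Klf7 at adjusted p = 0.0582), 3 with tributyrin against mock gavage and 4 against vehicle, where Klf4 was called (-0.22, adjusted p = 0.0398), and 2707, 3009 and 3569 genes over all. Sequencing depth is unknown, so the spread between 3 libraries is the measured limit.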
